A study of Mus musculus with 10 samples.

Results

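The genes described here are 35 mouse genes, all but 1 of them of the unfolded protein response and the integrated stress response. They were followed in cultured hepatic stellate cells with and without amphiregulin (Areg). They were taken as a named list, by pathway except for the growth factor gene Vegfd. The list holds 14 endoplasmic reticulum (ER) folding factors, 4 genes of ER-associated degradation and 3 stress sensors with the transcription factor gene Xbp1. It also holds 3 transcription factor genes of the integrated stress response, 4 stress effectors induced by ATF4, 5 enzymes of serine, one-carbon and asparagine metabolism, and Vegfd. The list was chosen with earlier results of these data known. All 35 were among the 13362 genes tested, of 36047 genes with transcripts in the files. Both groups came from livers of male C57BL/6 mice. Quiescent stellate cells, which store vitamin A beside the liver sinusoids, were cultured for 5 h and then held in starving medium for 4 h. The control group received no Areg and the treated group received recombinant mouse Areg, which activates the epidermal growth factor receptor, at 500 ng/mL. Each group had 5 poly-A RNA libraries. The comparison asks how transcript levels of these genes stood after this short exposure.

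The unfolded protein response adjusts the folding capacity of the ER to its load. IRE1 (Ern1) splices Xbp1 mRNA, ATF6 is cleaved to an active factor, and PERK (Eif2ak3) phosphorylates eIF2-alpha; ATF6 and spliced XBP1 raise chaperone genes. PERK shares eIF2-alpha with GCN2, PKR and HRI, the other kinases of the integrated stress response, in which bulk translation falls while Atf4 mRNA is translated more, so ATF4 activity need not follow the Atf4 mRNA level. In stellate cells the secretory pathway is best known for the load that collagen and other matrix proteins place on it during activation.

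Textbook response elements of these pathways could be read in the members' promoters, and 8 stretches are shown because they carry the elements next to which the later results are set. RefSeq promoters (build GRCm38.p6, 250 bases before to 50 after a gene's start) were found for 32 members, with no entry for Hyou1, Atf6 and Manf. Elements of 4 kinds were searched on both strands by their letters. The ER stress element (ERSE) is CCAAT and CCACG separated by 9 bases, ERSE-II is ATTGG and CCACG separated by 1 base, the core of the unfolded protein response element is TGACGTG, and the C/EBP-ATF response element (CARE) is TGATGNAA, where N is any base. ERSE and ERSE-II share the letters CCACG. In the stretches below, read 5′ to 3′ along the transcribed strand, capitals mark these elements on either strand. The first 6 end at the base before the RefSeq start, and those of Dnajb11 and Trib3 are 30 bases around an element just after it. They lie at chr2:34771870-34772089, plus strand (Hspa5), chr10:86705445-86705664, minus strand (Hsp90b1), chr15:88819426-88819645, plus strand (Creld2), chr12:17266369-17266588, plus strand (Pdia6), chr8:94386209-94386428, plus strand (Herpud1), chr6:7693210-7693429, minus strand (Asns), chr16:22857843-22857872, plus strand (Dnajb11) and chr2:152344028-152344057, minus strand (Trib3).
Hspa5: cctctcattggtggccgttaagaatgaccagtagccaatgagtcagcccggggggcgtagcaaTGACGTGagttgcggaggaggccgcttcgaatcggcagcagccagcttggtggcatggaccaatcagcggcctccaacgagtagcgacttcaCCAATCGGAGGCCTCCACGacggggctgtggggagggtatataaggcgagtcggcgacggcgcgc
Hsp90b1: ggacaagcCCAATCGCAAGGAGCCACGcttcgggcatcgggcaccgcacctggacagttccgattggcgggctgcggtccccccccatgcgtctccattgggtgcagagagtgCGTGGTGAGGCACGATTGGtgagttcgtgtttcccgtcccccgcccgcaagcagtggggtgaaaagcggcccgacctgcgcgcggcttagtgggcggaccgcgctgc
Creld2: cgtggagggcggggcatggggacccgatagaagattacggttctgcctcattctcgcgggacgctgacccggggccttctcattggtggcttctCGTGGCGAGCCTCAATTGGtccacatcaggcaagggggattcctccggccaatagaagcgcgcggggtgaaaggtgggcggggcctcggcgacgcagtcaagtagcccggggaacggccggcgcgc
Pdia6: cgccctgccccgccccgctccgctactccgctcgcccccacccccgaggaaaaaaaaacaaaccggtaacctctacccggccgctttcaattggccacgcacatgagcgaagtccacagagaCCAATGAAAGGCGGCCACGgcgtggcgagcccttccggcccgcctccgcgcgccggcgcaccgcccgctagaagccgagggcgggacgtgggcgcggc
Herpud1: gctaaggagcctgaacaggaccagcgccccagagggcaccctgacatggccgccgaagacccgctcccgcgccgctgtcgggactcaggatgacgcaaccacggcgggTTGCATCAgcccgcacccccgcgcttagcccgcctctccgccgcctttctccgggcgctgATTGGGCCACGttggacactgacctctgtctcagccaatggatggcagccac
Asns: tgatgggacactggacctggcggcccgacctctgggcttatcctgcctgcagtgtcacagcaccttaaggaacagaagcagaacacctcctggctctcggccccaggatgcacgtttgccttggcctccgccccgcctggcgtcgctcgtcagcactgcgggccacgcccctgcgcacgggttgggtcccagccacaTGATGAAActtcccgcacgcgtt
Dnajb11: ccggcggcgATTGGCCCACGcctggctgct
Trib3: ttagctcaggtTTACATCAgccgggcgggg

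An ERSE stood in a promoter of 8 of the 32 members, against 39 of all 32851 RefSeq promoters of this length (0.119%). Members are counted as genes and the background as single promoters, and Atf5 and Psat1 had more than 1 promoter. Of these 8 genes, 7 encode folding factors, Hspa5, Hsp90b1, Calr, Canx, Pdia6, Dnajc3 and Creld2, and the eighth was Syvn1. ERSE was first described in promoters of such genes, so its presence there is background. In Hspa5 the element began 65 bases before the start, in Pdia6 98 bases and in Creld2 126 bases before it, and Hsp90b1 held 2, which began 212 and 107 bases before its start. ERSE-II was found in Dnajb11 and Herpud1 (12 promoters in all, 0.0365%), and the TGACGTG core only in Hspa5 among members (661 promoters, 2.01%). CARE letters stood in Herpud1, Trib3, Chac1 and Asns (1304 promoters, 3.97%), in Asns 23 bases before the start. No promoter of Sesn2, Psat1, Xbp1, Dnajb9 or Vegfd held any of the 4 elements in this window. A match is a description of letters, not a bound site.

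Libraries held 10125184 to 20057962 estimated counts. Controls 3 and 4 were the shallowest, and their first principal component scores of 46.6 and 28.6 lay far from the -16.5 to 0.455 of the remaining 8. All 12 stellate cell markers, such as Ecm1, were detected, and their summed level was 6049 to 6742 CPM (counts scaled to library size) in controls and 5503 to 5688 in Areg libraries. Ecm1 alone averaged 3241.5 CPM over all libraries, so this sum leans on 1 gene. Markers of other liver cells summed to 5444 to 5846 CPM in controls and 5483 to 5607 with Areg for endothelium (10 of 10 markers above 1 CPM), 1224 to 2118 and 1398 to 1706 for hepatocytes (12 of 12), and 602 to 658 and 597 to 641 for macrophages (10 of 10). Smooth muscle and portal fibroblast markers summed to 207 to 241 and 224 to 235 CPM (10 of 12), lymphocyte markers to 1.67 to 3.45 and 1.64 to 2.49 (0 of 9), and cholangiocyte markers to 40.9 to 51.0 and 82.6 to 96.0 (2 of 8, led by Spp1). No marker was at 0 in all libraries. Endothelial sums came near the stellate sums, so levels below are those of whole libraries, not of stellate cells alone. The endothelial sum leans on 1 gene too, Cdh5, which averaged 2667.2 CPM over all libraries. The part of the stellate and cholangiocyte marker differences in the results below was not tested. In such bulk libraries fewer cells of a type and less RNA per cell cannot be told apart. Since nothing in the labels ties a library to its own animal or culture, p-values here speak only of library-to-library spread, possibly a technical one.

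Levels of different genes were compared per length, in TPM, which scale each transcript to its length and the library to a fixed total. In control libraries the most abundant member was Hspa5, the ER HSP70 chaperone BiP, at 901 ± 128 TPM (SD, n = 5). Atf4 followed at 886 ± 19.2 TPM, and the values of the 2 genes overlapped between libraries. Calr, a calcium-binding lectin chaperone, stood at 637 ± 80.1 TPM, Hsp90b1, the ER HSP90, at 495 ± 71.5, and Canx, the membrane-bound lectin chaperone, at 453 ± 65.1. Ppp1r15a, the stress-induced subunit that directs eIF2-alpha dephosphorylation, held 401 ± 55.2 TPM, so 5 of the 6 highest members were chaperones or Atf4 itself. Pdia3, Manf, Shmt2 and Xbp1 came next, at 286, 282, 257 and 247 TPM, and their neighbours in this order overlapped except that Atf4 lay above Calr, Ppp1r15a above Pdia3 and Xbp1 above Pdia6. The same 10 members were highest when CPM were divided by gene length. At the low end stood Sdf2l1 (17.7 ± 2.37 TPM), Eif2ak3 (13.6 ± 2.15) and Vegfd (6.54 ± 1.40). The plot of TPM by member shows this order.

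**Figure D1:**
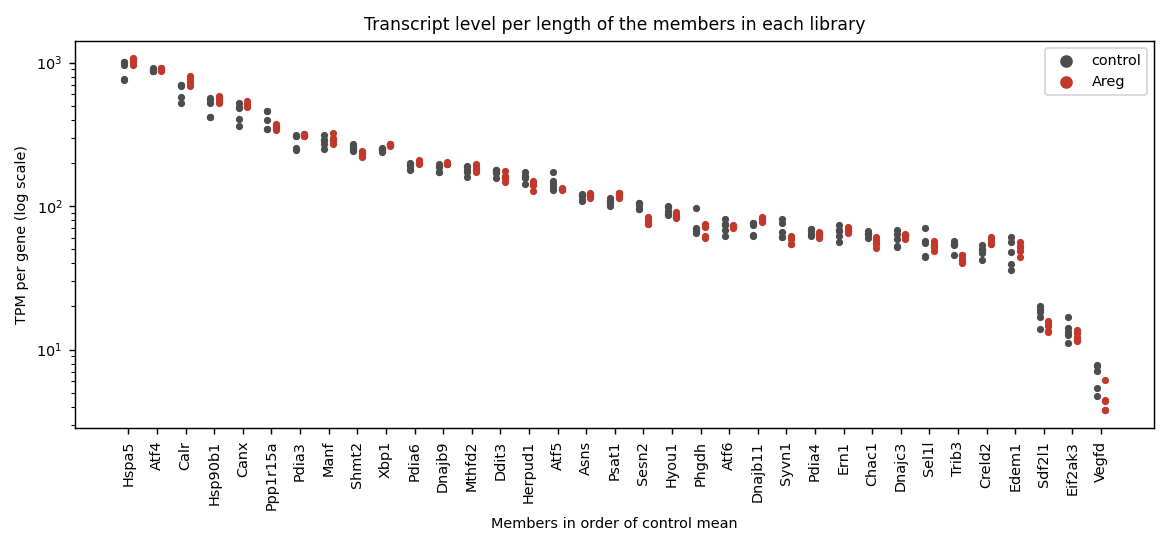
TPM of each of the 35 members on a log axis, in order of the control mean, with 1 point per library (5 control, 5 Areg). Control means run from 901 TPM for Hspa5 to 6.54 TPM for Vegfd.

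Differences between the groups were small. With Areg, 8 members rose and 3 fell in edgeR's quasi-likelihood test (Benjamini-Hochberg adjusted p under 0.05 over all genes tested). This is 11 of 35 members or 31.4%, against 16.7% of all genes tested called in either direction. The 8 that rose are 22.9% of members, against 8.34% of all genes, and the 3 that fell are 8.57%, against 8.32%, close to the background. The growth factor gene Vegfd is among the 3. The list was chosen with earlier results of these data known, so these shares describe it and are not a test. The members' median log2 fold change was 0.04, against -0.01 over all genes, and 32 members changed by less than 1.2-fold. In 9 members every Areg library lay above every control and in 3 every Areg library lay below, against 7.64% and 7.06% of all genes, while the groups overlapped in 23. In the plot of fold changes by role, folding factors lie mostly to the right of 0 and the stress effectors to the left.

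**Figure D2:**
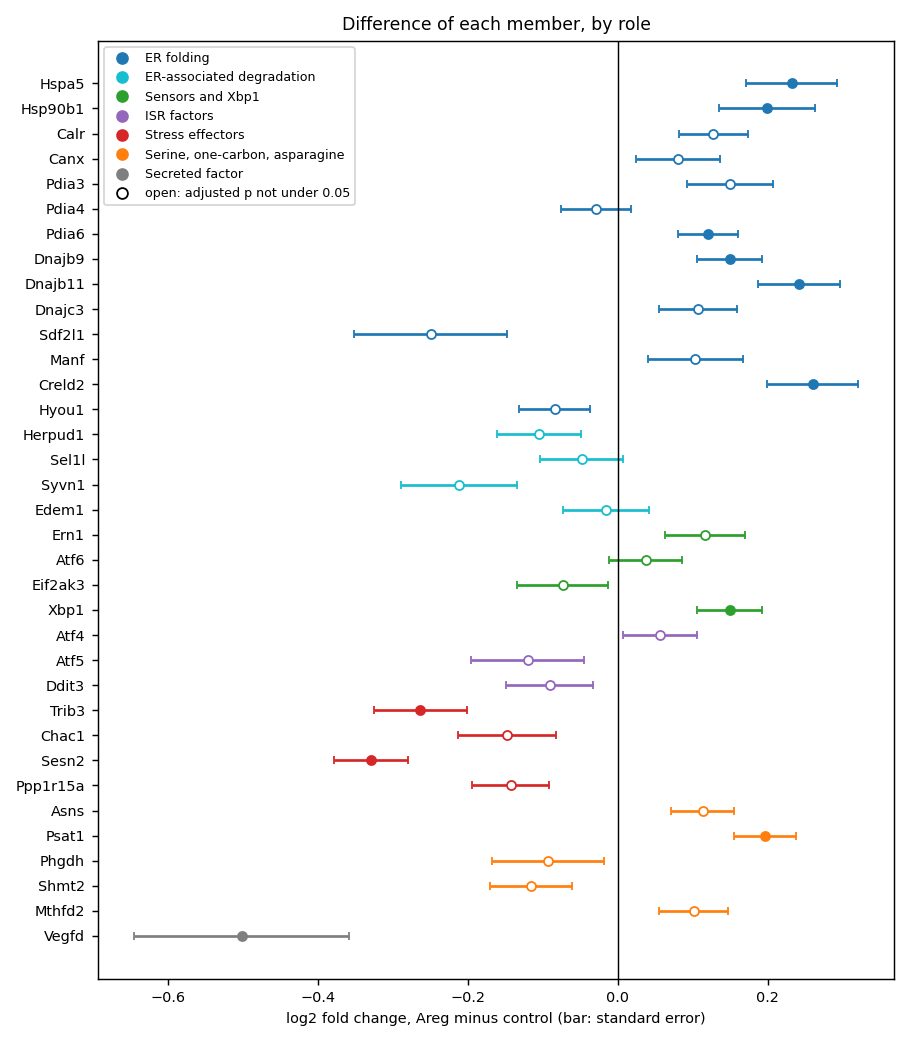
The log2 fold change (Areg minus control) of each member with its standard error, coloured by role; filled points passed an adjusted p of 0.05. Filled points on the right are 6 folding factors, Xbp1 and Psat1, and on the left Trib3, Sesn2 and Vegfd.

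Of the 14 folding factors 6 rose, Hspa5, Hsp90b1, Pdia6, Dnajb9, Dnajb11 and Creld2, and none fell. The rises were 42.9% of them, against 8.34% of all genes, and the median log2 fold change was 0.12. Hspa5 (chr2:34771970-34777547) had 1297, 1336, 1095, 1107 and 1305 CPM in controls 1 to 5 and 1466, 1482, 1452, 1379.5 and 1431 CPM in Areg libraries 1 to 5. Every Areg library lay above every control, and controls 3 and 4 were the lowest of all. The log2 fold change was 0.23 (SE 0.06, edgeR adjusted p = 0.0148). Without controls 3 and 4 it was 0.14 (adjusted p = 0.0163).

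Creld2, a disulfide isomerase-like factor induced by ER stress, had 34.7, 39.0, 36.2, 32.0 and 36.3 CPM in controls and 40.6, 45.8, 43.4, 41.3 and 42.5 CPM with Areg (chr15:88819646-88826683). The groups did not overlap, and at 0.26 on the log2 scale (SE 0.06, edgeR adjusted p = 0.00823) it rose the most of all members. Dnajb11, a J-protein that hands clients to BiP, had 77.01, 80.0, 69.7, 69.6 and 79.9 CPM in controls and 88.85, 92.9, 84.0, 88.3 and 91.4 CPM with Areg (chr16:22857845-22879634). Again all Areg libraries were higher, with controls 3 and 4 at the bottom (log2 fold change 0.24, SE 0.05, edgeR adjusted p = 0.00707). Dnajb9, a J-protein that restrains IRE1, had 245, 265, 247, 244 and 270.1 CPM in controls and 277, 282, 277, 282 and 291 CPM with Areg (chr12:44205559-44210326). The groups were apart by a narrow margin, at 0.15 on the log2 scale (SE 0.04, edgeR adjusted p = 0.0270).

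Hsp90b1 had 846, 872, 698, 701 and 843 CPM in controls and 921, 948, 868, 878 and 931 CPM with Areg (chr10:86690209-86705509). Its groups overlapped, since Areg 3 lay under control 2, and the low control mean of 792 ± 85.4 CPM rested on controls 3 and 4. The difference of 0.20 on the log2 scale (SE 0.06, edgeR adjusted p = 0.0439) was 0.09 without those libraries (adjusted p = 0.124). Pdia6, a protein disulfide isomerase, had 218, 232, 223, 221 and 227 CPM in controls and 238, 255, 243, 242 and 241 CPM with Areg (chr12:17266545-17284770). All Areg libraries were higher, but the difference of 0.12 on the log2 scale (SE 0.04) barely passed (edgeR adjusted p = 0.0494).

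The other 8 folding factors did not pass the test, and the groups overlapped in each. Calr ranged over 585 to 625 CPM in controls and 614 to 697 with Areg (log2 fold change 0.13, edgeR adjusted p = 0.0680). Pdia3, the isomerase that works with the lectin chaperones, ranged over 404 to 494 and 476 to 518 CPM (0.15, edgeR adjusted p = 0.0814). The log2 differences of Canx (0.08), Dnajc3, a co-chaperone that inhibits PERK (0.11), and Manf, a secreted ER factor (0.10), were above 0 too. Those of Pdia4, a disulfide isomerase (-0.03), Hyou1, the large HSP70 that recycles BiP's nucleotide (-0.08), and Sdf2l1, a partner of the J-proteins (-0.25), were below 0. Controls 3 and 4 lay under the other 3 controls for 6 of the 14 folding factors and above them for 2, Manf and Hyou1. Without them 6 folding factors again passed as higher and none as lower, with Manf now at 0.19 (edgeR adjusted p = 0.00856) and Hsp90b1 no longer among them. Summed over the 14 genes, transcripts reached 3326 to 4116 TPM in controls and 4079 to 4319 TPM with Areg, overlapping at the upper controls.

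**Figure D3:**
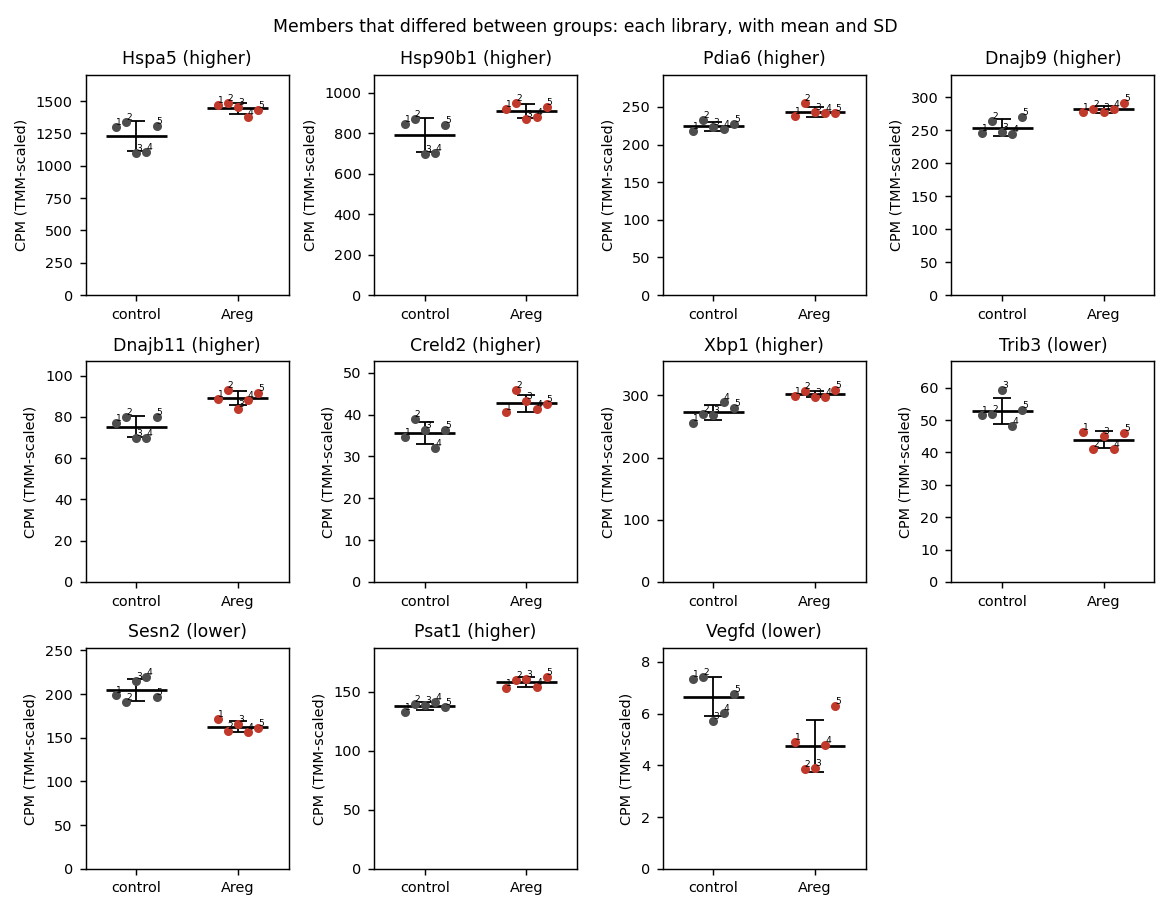
TMM-scaled CPM of the 11 members that passed the test, 1 point per library with its number, and the mean and SD of each group; every axis starts at 0. Hsp90b1 and Vegfd overlap between groups and the other 9 do not.

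None of the 4 genes of ER-associated degradation, the route by which misfolded proteins leave the ER for the proteasome, passed the test, and their median log2 fold change was -0.08. Herpud1, a scaffold of the retrotranslocation complex, ranged over 137 to 169 CPM in controls and 133 to 142 with Areg (-0.11, edgeR adjusted p = 0.208). Syvn1, the ubiquitin ligase HRD1, ranged over 107 to 144 and 99.1 to 110.4 CPM (-0.21, edgeR adjusted p = 0.0715), with its highest values in controls 3 and 4. Without those it was at -0.06. Sel1l, the adaptor of HRD1, stood at -0.05 and Edem1, a mannosidase-like factor that selects glycoprotein clients, at -0.02.

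Xbp1 was the gene that rose among the sensors and their factor. It had 255, 270.4, 268, 289 and 279 CPM in controls and 299, 307, 298, 298 and 308 CPM with Areg (chr11:5520659-5525893). All Areg libraries were above all controls, at 0.15 on the log2 scale (SE 0.04, edgeR adjusted p = 0.0260). The annotation holds no Xbp1 transcript without the short segment that IRE1 removes, so its splicing was not measured, and the rise is one of total Xbp1 mRNA. The sensor genes did not pass: Ern1 ranged over 222 to 271 CPM in controls and 260 to 280 with Areg (log2 fold change 0.12, edgeR adjusted p = 0.144), Atf6 stood at 0.04 and Eif2ak3 at -0.07.

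Among the factors of the integrated stress response no gene passed. Atf4, its central activator, ranged over 781 to 914 CPM in controls and 847 to 905 with Areg (log2 fold change 0.06, SE 0.05, edgeR adjusted p = 0.463). Controls 3 and 4 were its highest controls, and without them the value was 0.12 (edgeR adjusted p = 0.0450). Atf5 (-0.12), a related factor, and Ddit3 (-0.09), which encodes the pro-apoptotic factor CHOP, had adjusted p of 0.295 and 0.305 in edgeR's test.

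The 4 stress effectors induced by ATF4 all had log2 fold changes below 0 (median -0.21), and 2 of them fell. That is 50% of a list of only 4, against 8.32% of all genes. Sesn2, a leucine-sensing inhibitor of mTORC1, had 199, 191.0, 215, 219.55 and 197 CPM in controls and 172, 157, 166, 157 and 161 CPM with Areg (chr4:132492032-132510501). The groups were well apart, and the difference of -0.33 on the log2 scale (SE 0.05, edgeR adjusted p = 0.000421) passed in all 24 alternative analyses. Trib3, a pseudokinase that binds AKT and restrains ATF4, had 51.4, 51.8, 59.2, 48.2 and 53.2 CPM in controls and 46.2, 41.2, 45.2, 41.0 and 46.1 CPM with Areg (chr2:152337422-152344032). No library overlapped, at -0.26 on the log2 scale (SE 0.06, edgeR adjusted p = 0.00890).

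Ppp1r15a ranged over 451 to 529 CPM in controls and 428 to 446 with Areg, which did not overlap, but its log2 fold change of -0.14 missed the threshold (edgeR adjusted p = 0.0668) and was -0.06 without controls 3 and 4, its highest libraries. Chac1, a glutathione-degrading enzyme, was at -0.15 (edgeR adjusted p = 0.131). With the length and GC trend removed the median of the 4 effectors was -0.09, with Sesn2 alone passing, Chac1 at -0.03 and Ppp1r15a at -0.04. Summed transcripts of the 4 were 561 to 683 TPM in controls and 512 to 554 TPM with Areg.

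Psat1, the aminotransferase of serine synthesis, was the enzyme gene that rose. It had 133, 139.6, 139, 141 and 137 CPM in controls and 153, 159.8, 161, 154 and 163 CPM with Areg (chr19:15904678-15947337). The groups were clearly apart and the spread within each was small (log2 fold change 0.20, SE 0.04, edgeR adjusted p = 0.00440). Asns, the asparagine synthetase gene, ranged over 121 to 127 CPM in controls and 129.6 to 139.7 with Areg, without overlap, at a log2 fold change of 0.11 (edgeR adjusted p = 0.0725). Mthfd2, a mitochondrial folate enzyme, ranged over 177 to 198.02 and 198.05 to 217 CPM, apart by the slightest margin (0.10, edgeR adjusted p = 0.140). Phgdh, which opens serine synthesis, stood at -0.09 and Shmt2, the mitochondrial serine hydroxymethyltransferase, at -0.12, and neither passed. Across Atf4, Atf5, Ddit3, the effectors and these enzymes together, 1 of 12 rose and 2 fell, which is 8.33% and 16.7% of them, against 8.34% and 8.32% of all genes. Genes known as ATF4 targets stood on both sides of 0, and the median of the 12 was -0.10, but -0.01 without controls 3 and 4 and 0.01 with the length and GC trend removed. Controls 3 and 4 lay above the other controls for 6 of these 12 and below them for none.

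Vegfd, a lymphangiogenic growth factor and the least abundant member, had the largest difference of the list. It had 7.33, 7.42, 5.72, 6.04 and 6.76 CPM in controls and 4.91, 3.84, 3.88, 4.77 and 6.30 CPM with Areg (chrX:164373378-164402650). Areg 5 lay within the control range, and the other 4 Areg libraries lay below all controls. The log2 fold change was -0.50 (SE 0.14, edgeR adjusted p = 0.0246).

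**Figure D4:**
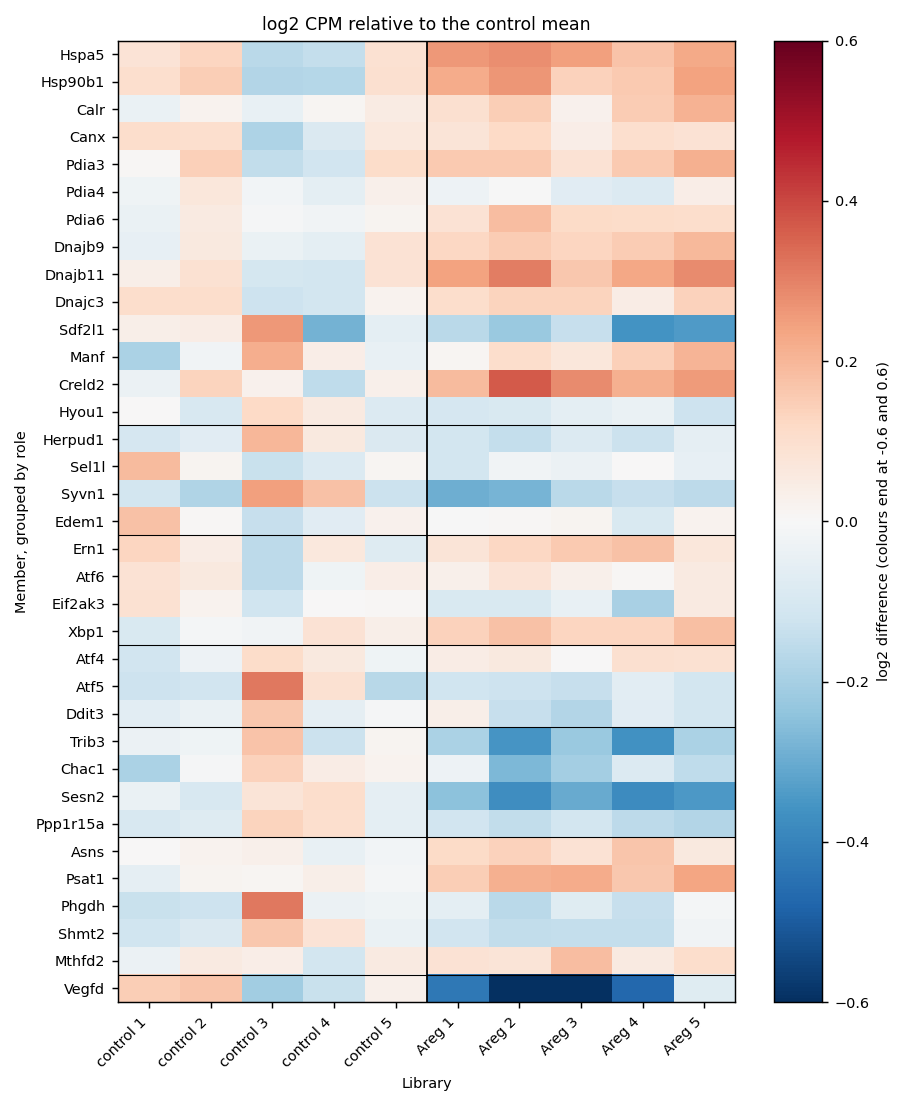
The log2 CPM of each member in each library relative to the mean of the 5 controls, with members in rows grouped by role and libraries in columns; colours end at -0.6 and 0.6. Controls 3 and 4 are low for Hspa5, Hsp90b1 and Dnajb11 and high for Syvn1, Atf5, Sesn2 and Ppp1r15a.

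Some of these calls hung on single libraries or on the processing. Hsp90b1 passed in 11 of 24 alternative analyses and Pdia6 in 5, Dnajb9 in 16, Vegfd in 17, Xbp1 in 19, Hspa5 in 21, Dnajb11, Creld2 and Psat1 in 22, and Trib3 in 23. Hsp90b1 failed when control 3, control 4 or any Areg library was left out (log2 fold change 0.16 to 0.22), and Pdia6 when any library other than control 2 was (0.10 to 0.13). Dnajb9 failed without control 4 or Areg 2, 4 or 5 (0.14 to 0.15), Xbp1 without Areg 2 or 5 (0.14), and Vegfd without control 1, control 2, Areg 2 or Areg 3 (-0.46 to -0.43). Calls were gained without control 1 by Ern1 (0.15), Chac1 (-0.19) and Ppp1r15a (-0.16), and without control 3 by Manf (0.16) and Asns (0.12). Calr gained one without Areg 3 (0.15), and Pdia3 (0.18 to 0.19) and Syvn1 (-0.25 to -0.24) without control 2 or control 5. Calr also passed in DESeq2 and with the transcript length offset, where its log2 fold change was 0.26, and Pdia3 and Syvn1 passed with the replicate block. Ppp1r15a and Asns passed in DESeq2 as well. With a per-library trend in gene length and GC content removed, Dnajb9 turned to -0.03 (edgeR adjusted p = 0.704), Hsp90b1 was 0.07 (0.241), Pdia6 0.06 (0.162) and Trib3 -0.13 (0.141), while Sesn2 passed at -0.14 (0.00513). In that analysis 3 folding factors passed as higher, Hspa5, Dnajb11 and Creld2, with a median of 0.04 over the 14, and Ern1 (0.16, adjusted p = 0.00354) and Atf4 (0.10, 0.0408) passed. On log2(TPM + 1), no member passed as higher in limma's test, while Sesn2 and Trib3 passed as lower. The 8 that rose in the edgeR test had log2 differences of 0.10 to 0.23 there, each smaller than its edgeR value. Hspa5 was at 0.20, Dnajb11 at 0.20, Creld2 at 0.23 and Psat1 at 0.17. Hsp90b1 was at 0.18, Dnajb9 and Xbp1 at 0.11 and Pdia6 at 0.10. The calls among all genes there were 37.6% higher, against 50.045% in the edgeR test. The plot of 2 alternatives shows where members moved.

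**Figure D5:**
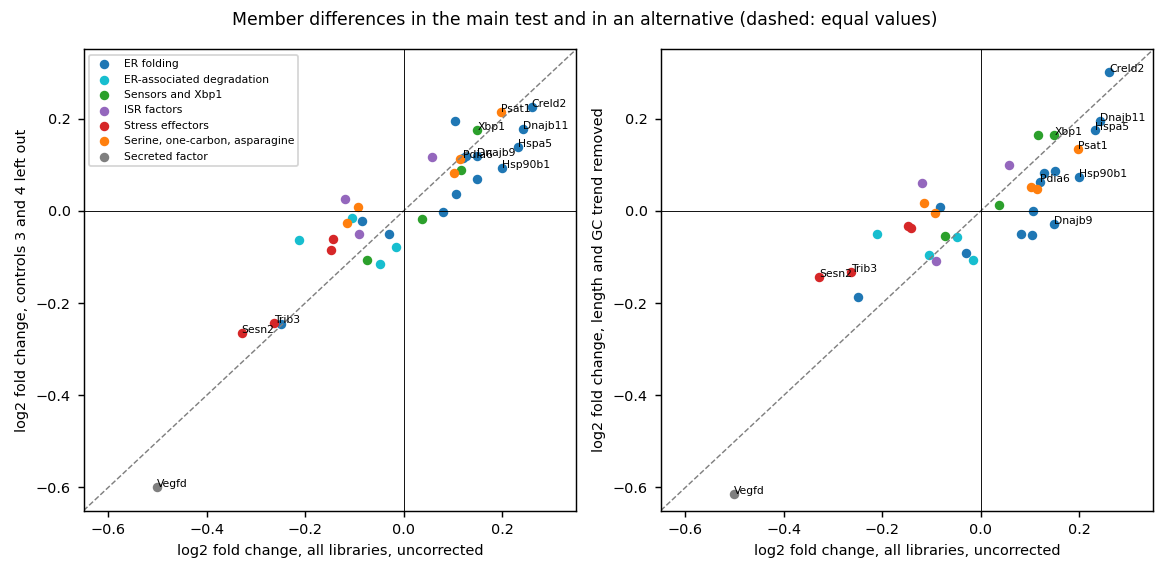
Log2 fold change of the 35 members with all libraries (horizontal axis) against the value without controls 3 and 4 (left) and with the length and GC trend removed (right), coloured by role; the dashed line marks equal values and the members passing the main test are named. Hspa5 and Hsp90b1 lie under the line in both panels and Dnajb9 crosses 0 in the right panel.

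Set beside the promoter elements shown above, 4 of the 8 genes with an ERSE rose (Hspa5, Hsp90b1, Pdia6 and Creld2) and none fell, where 8.34% of all genes rose. With the length and GC trend removed, Hspa5 and Creld2 alone of these 8 passed. Since 7 of the 8 are folding factors, the nearer comparison is the 14 folding factors, of which 6 rose. Among those 6, Dnajb9 and Dnajb11 held no ERSE. Whether genes with an ERSE differ from other folding factors was not tested. Of the ERSE-II genes Dnajb11 rose and Herpud1 did not pass. Of the 4 genes with CARE letters Trib3 fell, where 8.32% of all genes fell, and Asns, Chac1 and Herpud1 did not pass. Dnajb9, Xbp1, Psat1, Sesn2 and Vegfd changed with none of these letters in the window.

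Transcript forms were compared for the 11 members in which no single transcript held over 90% of the gene's estimated counts. The protein-coding Calr-201 held 81.6 ± 6.55% of Calr counts in controls and 73.6 ± 2.21% with Areg (SD, n = 5 each), the rest being mostly a retained-intron form. Canx-201 held 89.0 ± 0.75% in controls and 86.5 ± 0.95% with Areg. In neither gene did the groups overlap, and the two-sided exact permutation p was 0.00794, the smallest that 5 against 5 libraries can give (Benjamini-Hochberg adjusted p = 0.0437 over 11 genes). This adjusted p rests on both genes reaching that smallest p. The share of the main form of the other 9 (Ddit3, Edem1, Herpud1, Hyou1, Manf, Psat1, Sel1l, Shmt2 and Syvn1) did not pass, with adjusted exact p from 0.175 to 0.516. For Calr the control range was wide, 76.1 to 90.2%, and controls 3 and 4 held the 2 highest shares. Without them the difference shrank from -8.04 to -3.36 percentage points in Calr and from -2.50 to -2.11 in Canx, and neither passed (exact p = 0.0357 each, the smallest that 3 against 5 libraries can give, adjusted p = 0.131). The difference in the Psat1-201 share, which was lower with Areg, widened from -6.04 to -9.96 percentage points there, with the same exact and adjusted p. With so large a smallest p, not passing says little.

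Beyond the members, 77 further genes of ER translocation, folding, quality control and stress were read from the same test. Of the 75 tested, 7 rose and 2 fell (median 0.03). The strongest were Edem2, which trims mannose from misfolded glycoproteins (-0.32, edgeR adjusted p = 0.00383), Selenos, a selenoprotein of the retrotranslocation complex (0.26, 0.00820), Erp44, which retains unassembled secretory proteins (0.21, 0.0116), the signal peptidase subunit gene Spcs3 (0.21, 0.0188), the translocon-associated gene Ssr1 (0.20, 0.0206) and Ubxn4, an ER anchor of the segregase p97 (0.14, 0.0292). The rises were 9.33% of those tested, near the background of 8.34%, and the falls 2.67%, against 8.32%. With the length and GC trend removed the balance turned, with 5 higher, 7 lower and a median of -0.01, and Erp44 (0.04, edgeR adjusted p = 0.607), Spcs3 (0.05, 0.367) and Ubxn4 (0.04, 0.481) no longer passed. On log2(TPM + 1), 2 passed as higher and 2 as lower.

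Among 60 further genes of eIF2-alpha kinases, ATF4 targets and the amino acid response, 59 were tested, and 9 rose and 9 fell (median 0.01). The glycine transporter gene Slc6a9 (-0.36, edgeR adjusted p = 0.000424), Pck2, the mitochondrial PEP carboxykinase (-0.28, 0.00156), and Mars, the methionyl-tRNA synthetase gene (-0.24, 0.00255), fell. Slc7a11, the cystine transporter gene (0.52, 0.00225), Tars, the threonyl-tRNA synthetase gene (0.25, 0.00262), and Eif2b1, a subunit of the eIF2 exchange factor (0.30, 0.00403), rose. Of the same list, 2 genes of tRNA synthetases moved in opposite directions, as did 2 of amino acid transporters. Each direction holds 15.3% of the list, against 8.34 and 8.32% of all genes, but the even split did not hold on every scale. On log2(TPM + 1), 2 passed as higher and 9 as lower, and with the transcript length offset 4 and 7. With the length and GC trend removed, 6 passed as higher and 8 as lower, and the same counts were found without controls 3 and 4.

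Some members share exonic bases with a gene on the other strand, and whether counting used strand is not given in the sources used here. For example, Ddit3 shares 68 with Mars, Manf 146 with Dcaf1, Atf5 82 with Nup62 and Syvn1 91 with Mrpl49, so their values are less certain. None of the 11 members that passed the test overlaps a gene on the other strand with a mean estimated count above 3.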

How the data were processed

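Poly-A RNA libraries were made with a TruSeq kit, per the labels' protocols. The deposited tables give, per the file headers, expected counts (kallisto's read estimates, often fractional) and TPM from the authors for each transcript. Named in the submitters' processing notes are kallisto 0.44.0, bcl2fastq 2.19, DESeq2 and GRCm38.p6. Transcript set and strand setting were not given in the sources used here.

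Of 118489 transcripts, 116816 matched GENCODE M21 (GRCm38) and were summed to 36047 genes and rounded. edgeR 4.0.16 (R 4.3.3) was run with TMM factors, filterByExpr (minimum count 10, minimum total 15), robust quasi-likelihood fits and Benjamini-Hochberg adjustment over 13362 genes. Fold changes are log2 of Areg over control, and CPM are TMM-scaled. The biological coefficient of variation was 9.37%. No library was a copy of another, since chi-square over degrees of freedom was 3.74 to 50.5 within groups. Tested on simulated data for this comparison (13362 genes), the fit called 34.8% of genes changed 1.25-fold, 69.7% at 1.5-fold, 91.4% at 2-fold and 0.0658% of unchanged genes. Over all runs 201, 201 and 198 genes were changed by these folds and 39486 were not. This is a far smaller share than the 16.7% of genes called in the data. The adjusted p depends on that share, so recovery in the data may differ from these rates.

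Members and lists were chosen with earlier results of these data known. All members are named; of each wider list, up to 6 called genes with the smallest p. The 24 alternatives were other scalings and filters, DESeq2 1.42.0, limma-voom (limma 3.58.1), a likelihood-ratio test, log2(TPM + 1) and log2(TPM + 0.1), a length offset, a length and GC trend, protein-coding genes alone, a replicate block, libraries left out singly, and controls 3 and 4 left out. Transcript shares were added after seeing the data. Same-numbered libraries had correlations of their deviations from -0.05 to 0.14, and the labels name no shared animal or day, so numbers were not taken as pairs.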

Additional observations from a re-analysis of the deposited data

Results flagged for a closer look

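Among 70 member groups of 5 libraries, 4 had 1 library whose gap to the nearest other was large for the group's range by Dixon's criterion; chance gives about 1 in 20 groups, so 4 of 70 is near that rate. Edem1 was 75.1 CPM in Areg 4, against 80.1 to 81.3 in the other Areg libraries. Ddit3 was 81.4 CPM in control 3, against 69.6 to 72.3 in the other controls. Phgdh was 65.6 CPM in control 3, against 48.0 to 51.8. Shmt2 was 271 CPM in Areg 5, against 249 to 255. None of the 4 genes passed the comparison of the groups.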

How the results depend on the processing

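Of the 840 values of 35 members under 24 alternatives, 741 kept both sign and side of the threshold, and 17 values of 10 members changed sign with no call in either analysis. A further 61 lost the call, 20 gained one, and 1 called value changed sign (Dnajb9, -0.028 with the length and GC trend removed).

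The count of members that rose (8) was 0 on log2(TPM + 1), 0 on log2(TPM + 0.1) and 4 with the transcript length offset; it ranged from 4 to 9 with 1 library left out, at 4 without Areg 2 or Areg 5 and 5 without control 4 or Areg 4. The count that fell (3) ranged from 2 to 4. Over all genes, 1114 rose and 1112 fell in the main test; these were 322 and 534 on log2(TPM + 1), 325 and 543 on log2(TPM + 0.1), 617 and 532 with the length offset, and 686 to 1181 and 678 to 1150 with 1 library left out, lowest without Areg 2. The cause was not tested. With the replicate block, 8 members rose and 4 fell, and over all genes 1208 rose and 1149 fell. Same-numbered correlations were low, from -0.05 to 0.14. Controls 2 (0.09) and 4 (0.14) correlated best with the Areg library of their own number, and controls 1, 3 and 5 did not. These values do not settle whether the numbers mark pairs. Scalings moved the median of all genes by under 0.1.

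The spliced share of Xbp1 and its alternative were not run, since the annotation holds no spliced form. For Calr and Canx shares, 9 libraries would give an adjusted p of 0.0873 over 11 genes if both reached the smallest exact p. Small p of other genes could lower this value, so it is no fixed bound. The share differences were -5.90 to -9.42 and -2.24 to -2.82 percentage points with 1 library left out, and -11.86 and -6.48 on TPM. At this spread changes of the size seen in most members can be missed.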
